A study of Mus musculus with 9 samples.

Results

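The smooth muscle contractile genes described here are 10 genes picked by symbol, namely Acta2, Actg2, Tagln, Cnn1, Myl9, Myh11, Tpm1, Tpm2, Cald1 and Des, out of 50686 genes in the deposited count table. RNA-Seq had been performed on 9 libraries in 3 groups of 3. Control osteoblasts were MC3T3-E1 cells, a mouse osteoblast line, that are labelled as control. The treated osteoblasts were MC3T3-E1 cells given SB216763, a small-molecule inhibitor of glycogen synthase kinase 3 (GSK3), at 10 μM for 14 days, and the third group was mouse pulmonary endothelial cells (ECs). The treatment text of the labels is the same for all 9 libraries, controls and ECs included, so the groups were taken from the titles of the libraries. Both osteoblast groups came from 1 cell line, no genotype or age was given for the ECs, and the culture time of the controls was not given. The sources did not say whether the 3 libraries of a group came from separate cultures, so the p-values measure the spread between these libraries, which may be technical.

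Smooth muscle contracts when myosin filaments pull on filaments of smooth muscle actin. Phosphorylation of the regulatory light chain starts the pull, and tropomyosin, caldesmon, calponin and transgelin sit on the actin filament and adjust it. Most of these genes are driven by serum response factor (SRF), which binds a sequence called the CArG box together with myocardin or the actin-sensing myocardin-related factors. Several of them are also switched on in myofibroblasts and cultured mesenchymal cells, so alpha smooth muscle actin alone does not define a smooth muscle cell.

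The libraries held 30990107 to 68946333 counts, and 3 counts, taken as the floor of detection, equaled 0.0435 to 0.0968 CPM. CPM is a gene's counts scaled to a common library size, here after normalization by the trimmed mean of M values (TMM). All 8 endothelial markers were at 80.2 CPM or more in ECs, and their sum was 6529 to 6716 CPM there, 3.40 to 4.06 CPM in control osteoblasts and 4.51 to 5.13 CPM in treated osteoblasts. In ECs the lung epithelial markers summed to at most 0.0927 CPM, with Epcam, Sftpc and Scgb1a1 at 0, the fibroblast markers to 23.5 to 25.9 CPM, and the hematopoietic markers to 56.3 to 58.4 CPM, of which Cd68 made up 46.6 CPM. Of the osteoblast markers, 6 of 8 were at 1 CPM or more in each osteoblast group, but not the same 6. Alpl reached 1 CPM in controls (34.0 CPM) and not in treated osteoblasts (0.468 CPM). Dmp1 reached it in treated osteoblasts (66.4 CPM) and not in controls (0.185 CPM). Control replicate 2 stood apart for several long transcripts, such as Myh9 at 821 CPM against 1234 and 1185 CPM in the other control libraries.

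RefSeq promoter windows of 250 bases before and 50 after the start, on GRCm38.p6, were on hand for 7 of the 10 genes (Acta2, Cnn1, Myl9, Tpm1, Tpm2, Cald1 and Des). They were not on hand for Actg2, Tagln and Myh11. Each window was searched on both strands for the CArG box. All sequences that matched are shown, and they belong to Acta2 and Myl9. Capitals mark the match, and positions are counted from the RefSeq start.

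Acta2, bases -94 to -65, chr19:34255438-34255467, minus strand: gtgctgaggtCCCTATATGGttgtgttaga
Acta2, bases -44 to -15, chr19:34255388-34255417, minus strand: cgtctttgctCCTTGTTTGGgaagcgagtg
Myl9, bases -250 to -45, chr2:156775214-156775419, plus strand: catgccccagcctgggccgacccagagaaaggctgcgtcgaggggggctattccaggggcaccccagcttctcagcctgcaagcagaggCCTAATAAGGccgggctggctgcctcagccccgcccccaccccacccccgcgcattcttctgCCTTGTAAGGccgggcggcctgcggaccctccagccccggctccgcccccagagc

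Only Myl9 held an exact CArG box, from -161 to -152, among the 7 genes with a window. A further match, with 1 base of the core that was neither A nor T, lay at -99 to -90 in Myl9, and such matches lay at -84 to -75 and -34 to -25 in Acta2. In GENCODE an exon of Acta2 begins further upstream and covers 217 of the 250 bases before the RefSeq start, both matches included. Of all 32841 windows of this length, 1.63% held an exact CArG box and 9.98% held a CArG box with at most 1 such core base. The motif CTTTGAT, a form of the TCF/LEF site through which β-catenin acts on genes, was in none of the 8 windows of the 7 genes and in 3.73% of all windows. These matches describe letters in the windows, and binding was not measured.

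Treatment with SB216763 was followed by lower levels of most of the contractile genes. Acta2, Actg2, Myl9 and Tagln fell by 10.3- to 109-fold, Tpm1 fell 2.40-fold, and Tpm2 and Cald1 fell 1.34- and 1.38-fold. Cnn1 was lower on very few counts, Myh11 did not pass the test, and Des was 1.21-fold higher. By edgeR's quasi-likelihood test, 8 of the 10 were lower at a false discovery rate (FDR) under 0.01, against 32.0% of all 15531 genes tested, and 1 was higher, against 32.9%. With the study's cutoffs of an FDR under 0.01 and a log2 fold change of at least 2, 5 of the 10 were lower, against 5.84% of all genes tested, and none was higher, against 3.81%. The libraries of the groups did not overlap for 8 lower genes and 1 higher gene, against 35.9% and 37.3% of all genes. The median log2 fold change was -1.85 over the 10 genes and 0.01 over all genes tested. All 10 genes passed the filter on low counts, which asked for 0.275 CPM in 3 libraries, but Cnn1 and Myh11 reached it in all 3 libraries of ECs only, and Tagln reached it in no treated library.

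**Figure D1:**
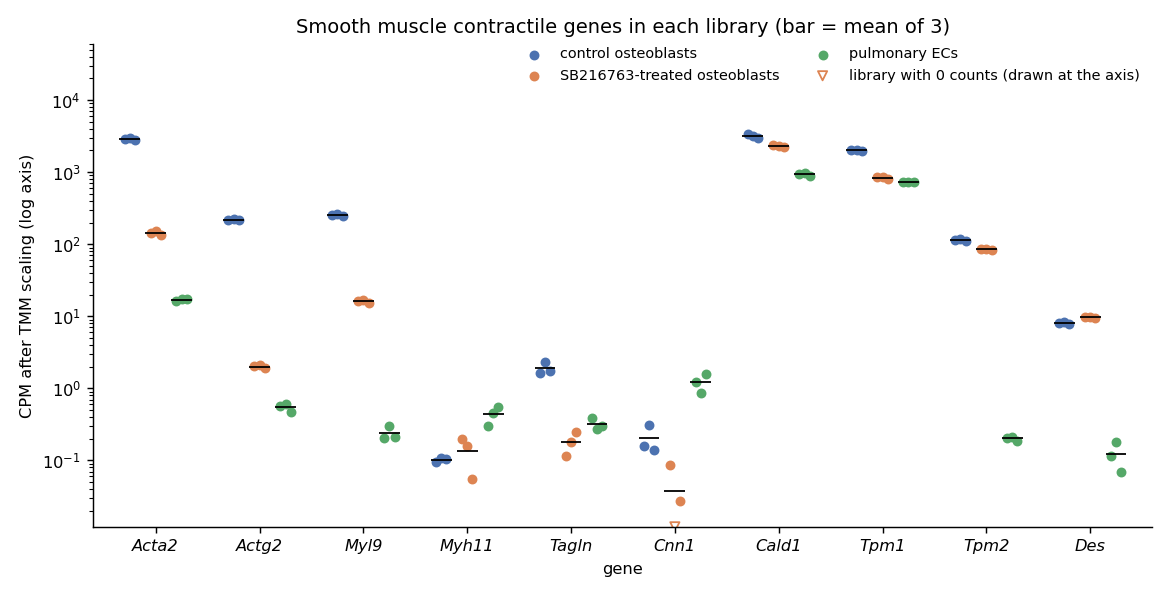
CPM of the 10 genes on a log axis, with 1 point for each library and a bar at the mean of 3, for control osteoblasts, SB216763-treated osteoblasts and ECs. Acta2, Actg2 and Myl9 step down from control to treated libraries without overlap, Cald1, Tpm1 and Tpm2 stay within 2.40-fold, and the 1 library with no Cnn1 count is drawn at the axis as an open triangle.

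Acta2 encodes alpha smooth muscle actin and was the contractile gene with the highest level in controls per length. It was measured at 2903, 3016 and 2825 CPM in the control libraries, at 145, 152 and 134 CPM in the treated libraries, and at 16.4, 17.4 and 17.3 CPM in ECs. Every control library was above every treated library, and every treated library was above every EC library. The fall with SB216763 was 20.3-fold (log2 fold change -4.34, SE 0.06, FDR = 2.06e-17). By mean CPM, Acta2 ranked 19 among the 15531 genes tested in controls, 1447 in treated osteoblasts and 7903 in ECs.

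Actg2 encodes gamma smooth muscle actin, the form typical of visceral muscle. Its level was 218, 227 and 214 CPM in controls and 2.04, 2.09 and 1.91 CPM in treated osteoblasts. In ECs it was 0.573, 0.609 and 0.463 CPM, from 20 to 25 counts a library. The 3 groups did not overlap, and the treated level rested on 70 to 80 counts a library. Actg2 fell 109-fold (log2 fold change -6.77, SE 0.07, FDR = 2.00e-18), which was the smallest p-value of all 15531 genes and the 46th lowest log2 fold change. This log2 fold change lay below the -4.34 of Acta2. The SE of Actg2 understates the counting error of the treated libraries, so no interval is given. The actin genes are near-identical in their coding sequence, and how reads with more than 1 match were counted was not stated, so that levels of single actin genes are uncertain to that extent.

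Myl9 encodes the regulatory light chain of smooth muscle myosin, the chain whose phosphorylation starts contraction. Levels were 253, 266 and 245 CPM in controls, 16.5, 16.6 and 15.4 CPM in treated osteoblasts and 0.206, 0.305 and 0.208 CPM in ECs. The EC levels came from 9, 10 and 9 counts, well under either osteoblast group. The fall with treatment was 15.7-fold (log2 fold change -3.97, SE 0.06, FDR = 1.37e-17). Myh11, the smooth muscle myosin heavy chain and the most restricted marker of that muscle, was near the floor of detection in both osteoblast groups and low in ECs. Controls gave 6, 6 and 3 reads of it, treated osteoblasts 7, 6 and 2, and ECs 13, 15 and 24. The osteoblast groups overlapped, and the difference (log2 fold change 0.41, 95% interval -0.63 to 1.45, FDR = 0.503) was not detectable at this depth.

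Tagln encodes transgelin (SM22 alpha), an actin-binding protein that is an early marker of smooth muscle. It was low in every library, at 1.65, 2.29 and 1.74 CPM in controls, 0.115, 0.182 and 0.245 CPM in treated osteoblasts and 0.389, 0.274 and 0.301 CPM in ECs. The treated libraries held 4, 7 and 9 counts, all below the EC libraries in CPM, and the control libraries held 50 to 126 counts. The fall with SB216763 was 10.3-fold (log2 fold change -3.37, SE 0.28, FDR = 1.81e-08), and the ratio of control to treated counts per depth was 10.5, with a 95% interval of 6.67 to 17.5 for counting error alone. On the opposite strand, the antisense gene Gm48529 shares 1241 of the 1988 exon bases of Tagln, and Pcsk7 shares 108. The strand setting of the counting was not stated, so reads of these genes cannot be told apart and the level of Tagln is uncertain. Gm48529 itself was counted at 0.281 ± 0.063 CPM in controls, 0.302 ± 0.069 CPM in treated osteoblasts and 0.317 ± 0.167 CPM in ECs (SD, n = 3). Pcsk7 was far above Tagln, at 24.8, 33.9 and 36.4 CPM in the same groups.

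Cnn1 encodes calponin 1, which holds back the myosin motor on actin and marks differentiated smooth muscle. Its counts were 10, 17 and 4 in control osteoblasts, 3, 0 and 1 in treated osteoblasts and 54, 28 and 69 in ECs. In CPM the control and treated libraries did not overlap, but nearly all of them were close to the floor of 3 counts. The ratio of control to treated counts per depth was 5.79, with a 95% counting interval of 2.05 to 22.6 (log2 fold change -2.43, SE 0.74, FDR = 0.00812). The call was lost with scaling by library size alone (FDR = 0.0155), with the replicate number as a block (FDR = 0.0105), and without control replicate 2 (FDR = 0.0376), SB216763 replicate 2 (FDR = 0.0404) or SB216763 replicate 3 (FDR = 0.0331). In a fit of the osteoblast libraries alone, Cnn1 did not pass the filter on low counts and was not tested.

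Cald1 encodes caldesmon, an actin- and myosin-binding brake whose longer isoform is found in smooth muscle and whose shorter isoform is widespread. The counts are per gene and do not separate the isoforms of Cald1, Tpm1 or Tpm2. Cald1 was at 3385, 3174 and 2981 CPM in controls, 2410, 2299 and 2216 CPM in treated osteoblasts and 948, 978 and 897 CPM in ECs. The groups stepped down without overlap, and the fall with treatment was 1.38-fold (log2 fold change -0.46, SE 0.06, FDR = 4.55e-06).

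Tpm1 and Tpm2 encode tropomyosins, the coiled coils that run along the actin filament. Tpm1 was at 2039, 2035 and 1950 CPM in controls, 847, 859 and 808 CPM in treated osteoblasts and 739, 736 and 732 CPM in ECs. It fell 2.40-fold with SB216763 (log2 fold change -1.26, SE 0.05, FDR = 1.72e-12), so that the treated libraries lay much closer to ECs than to controls. Tpm2 was at 115, 116 and 111 CPM in controls and 87.0, 84.7 and 84.2 CPM in treated osteoblasts, but at 0.206, 0.213 and 0.185 CPM in ECs. Its fall was 1.34-fold (log2 fold change -0.42, SE 0.04, FDR = 1.15e-07), and the treated libraries remained far above ECs.

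Des encodes desmin, the muscle intermediate filament that ties the contractile apparatus together. It was at 8.02, 8.34 and 7.71 CPM in controls, 9.92, 9.75 and 9.50 CPM in treated osteoblasts and 0.115, 0.183 and 0.0695 CPM in ECs. The treated libraries lay just above the controls (log2 fold change 0.27, SE 0.08, FDR = 0.00497), opposite to the other contractile genes that passed the test. This FDR rose to 0.0176 in DESeq2 and to 0.0186, 0.0214, 0.0233 and 0.0152 without control replicate 1, control replicate 3, SB216763 replicate 1 and SB216763 replicate 2, respectively, so the higher level of Des was not stable at 0.01.

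The makeup of the contractile counts therefore differed between the osteoblast groups as well as their amount. The 10 genes summed to 8702 ± 319 CPM in controls, 3403 ± 125 CPM in treated osteoblasts and 1697 ± 42.4 CPM in ECs (SD, n = 3). Acta2 made up 33.5% ± 0.849 of this sum in controls, 4.23% ± 0.194 in treated osteoblasts and 1.002% ± 0.044 in ECs. Tpm1 and Cald1 together made up 59.6% ± 1.03 of the sum in controls, 92.4% ± 0.179 in treated osteoblasts and 98.8% ± 0.059 in ECs. These are shares of counts, to which longer genes add more, and not shares of transcripts. Cald1 led in controls by CPM, but Acta2 led there per length. Without Tpm1 and Cald1, the other 8 genes summed to 3513 ± 116 CPM in controls, 257 ± 10.5 CPM in treated osteoblasts and 20.1 ± 0.651 CPM in ECs.

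To compare levels between genes, CPM was divided by the length of each gene's exons in kb (RPKM). In controls the order was Acta2 at 1327 ± 43.6 RPKM, Tpm1 at 310 ± 7.74, Cald1 at 264 ± 16.8, Myl9 at 219 ± 9.09, Actg2 at 141 ± 4.34, Tpm2 at 39.2 ± 1.06, Des at 2.14 ± 0.084, Tagln at 0.953 ± 0.175, Cnn1 at 0.0738 ± 0.034 and Myh11 at 0.0135 ± 0.00098, with no overlap of libraries between any neighbors. With the longest transcript as the length, the libraries of Tpm1 and Cald1 overlapped in controls. In treated osteoblasts Cald1 led at 192 ± 8.08 RPKM, followed by Tpm1 at 129 ± 4.12, Acta2 at 65.5 ± 4.14, Tpm2 at 29.3 ± 0.518, Myl9 at 13.9 ± 0.57, Des at 2.59 ± 0.055 and Actg2 at 1.29 ± 0.059 RPKM. Actg2 thus moved from 5th to 7th place and passed below Des, and Tpm2 passed above Myl9. Tagln, Myh11 and Cnn1 came last, and the libraries of the latter pair overlapped. In ECs the order began with Tpm1 at 113 ± 0.479 RPKM, Cald1 at 78.1 ± 3.37 and Acta2 at 7.74 ± 0.257, and every other gene was below 0.5 RPKM. There, Cnn1 overlapped with Actg2, Myl9 with Tagln, and Tpm2 with Myh11 and Myh11 with Des.

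The muscle forms were also set against the nonmuscle members of the same families, which most cells use for the cytoskeleton. Of the summed RPKM of 6 actin genes, Acta2 and Actg2 held 37.0% ± 0.766 in controls, 3.98% ± 0.050 in treated osteoblasts and 0.331% ± 0.017 in ECs. Actb, the beta-actin gene, held 41.7% ± 1.21 in controls, 70.3% ± 0.486 in treated osteoblasts and 69.6% ± 0.809 in ECs, although its own level was lower after treatment (log2 fold change -0.49, FDR = 2.83e-06). Myl9 held 39.4% ± 1.48 of the RPKM of 3 regulatory light chain genes in controls, 5.99% ± 0.234 in treated osteoblasts and 0.0541% ± 0.014 in ECs. Its nonmuscle relatives went in opposite directions, with Myl12a lower (log2 fold change -0.87, FDR = 4.00e-09) and Myl12b higher (0.61, FDR = 4.39e-08).

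The share of Tpm1 and Tpm2 among the tropomyosins differed less between the osteoblast groups. The counts do not separate the isoforms of these genes, so it is not a share of muscle isoforms. Tpm1 and Tpm2 together held 45.9% ± 0.589 of tropomyosin RPKM in controls, 48.4% ± 0.43 in treated osteoblasts and 20.6% ± 0.359 in ECs. Tpm4, a cytoskeletal tropomyosin, fell further than either (log2 fold change -1.50, FDR = 5.05e-13), and Tpm3 fell by 0.44 on the log2 scale (FDR = 2.75e-07). Cnn1 held at most 0.218% of calponin RPKM as a group mean, the rest being Cnn2 (log2 fold change -0.94 with treatment, FDR = 2.69e-10) and Cnn3 (0.26, FDR = 1.22e-04). Tagln held 0.526% ± 0.08 of transgelin RPKM in controls and less than that in the other groups, with Tagln2 making up the rest (log2 fold change -0.87, FDR = 1.67e-10). The share of Tagln is as uncertain as its level, because of the overlapping genes. Myh11 held at most 0.027% of the RPKM of 3 myosin heavy chain genes as a group mean, against nonmuscle Myh9 and Myh10. Des held 0.235% ± 0.0058 of the summed RPKM of Des and Vim in controls and 0.972% ± 0.031 in treated osteoblasts, where Vim, the vimentin gene, fell (log2 fold change -1.78, FDR = 6.84e-14).

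**Figure D2:**
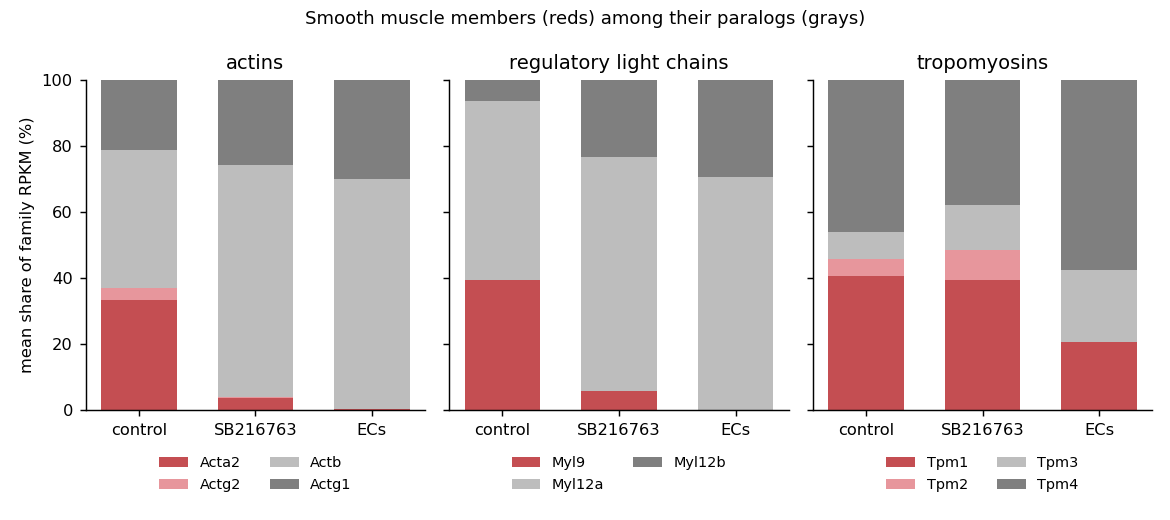
Mean share (%) of family RPKM held by each gene in control osteoblasts, SB216763-treated osteoblasts and ECs (n = 3 each, error bars not drawn, SDs up to 1.58 percentage points). The red segments of Acta2 with Actg2 shrink from 37.0% to 3.98% and that of Myl9 from 39.4% to 5.99% between the osteoblast groups, whereas Tpm1 with Tpm2 stay at 45.9% and 48.4%.

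Across all 13 nonmuscle paralogs, 10 were lower, against 32.0% of all genes tested, and 2 were higher, against 32.9%, after treatment at an FDR under 0.01, none past the fold cutoff, with a median log2 fold change of -0.87. Myh9 was the exception that did not pass (log2 fold change -0.33, FDR = 0.0145). The remaining values were -0.97 for Actg1, -0.91 for Myh10 and -0.52 for Myl6, the essential light chain gene.

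Genes outside the 10 that belong to smooth muscle were examined from a separate list of 15, of which 12 were tested. At an FDR under 0.01, 8 were lower (32.0% of all genes tested) and 2 were higher (32.9%) with SB216763, and 3 of 12 were lower past the fold cutoff (5.84%), with a median log2 fold change of -0.61. These 3 were Ldb3, a Z-disc PDZ-LIM protein (log2 fold change -5.31, SE 0.13), Lmod1, leiomodin 1, which nucleates actin in smooth muscle (-2.16, SE 0.06), and Csrp1, a smooth muscle LIM protein (-2.04, SE 0.05). Lmod1 went from 42.0 ± 3.03 to 9.41 ± 0.308 CPM, and Ldb3 from 13.0 ± 0.473 to 0.327 ± 0.023 CPM. The genes that rose were Mylk, the light chain kinase (0.54, FDR = 7.06e-05), and Ppp1r12b, a myosin phosphatase subunit (0.26, FDR = 1.02e-04). Kcnmb1, Pln and Pdlim3 were at or near 0 and were not tested.

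Striated muscle genes were at 1.71 CPM or less in both osteoblast groups. Of 13 listed, 7 did not pass the filter on low counts, among them Actc1, Myog, Myod1 and Ckm. None of the 6 tested was lower at an FDR under 0.01, against 32.0% of all genes tested, and 2 were higher, near the 32.9% of all genes tested. These 2, Tnnt1 and Tnnc1, were at 0.554 ± 0.083 and 1.71 ± 0.406 CPM in treated osteoblasts.

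The transcription factors that act on these genes changed by less than the fold cutoff. Of 10 SRF and myocardin regulators tested, 4 were lower and 3 higher at an FDR under 0.01, near the 32.0% and 32.9% of all genes tested, and none passed the fold cutoff, with a median log2 fold change of -0.12. Srf went from 159 ± 2.45 to 101 ± 5.03 CPM (log2 fold change -0.64, FDR = 2.48e-09), and Mrtfa, which carries the actin signal to SRF, from 100.4 ± 4.87 to 74.9 ± 2.70 CPM (-0.42, FDR = 1.12e-06). Mrtfb (log2 fold change -0.07, FDR = 0.498) and Klf4, a repressor of the contractile genes (-0.07, FDR = 0.16), did not pass. Myocd, the gene of myocardin, had 0 counts in all 6 osteoblast libraries.

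Known SRF and actin-responsive target genes were mostly lower after treatment. Of 16 tested, 11 were lower (32.0% of all genes tested) and 3 higher (32.9%) at an FDR under 0.01, with 4 lower past the fold cutoff (5.84%) and a median log2 fold change of -1.18. The 4 were Ankrd1, a mechanosensitive cofactor (-5.13), Fhl1, a LIM-domain protein (-3.35), Ccn1, a matricellular protein (-2.73), and Filip1l (-2.13). Fhl2, a related LIM-domain protein, was higher (1.99, SE 0.05). Of 12 transforming growth factor β (TGF-β) signaling genes, 6 were lower (32.0% of all genes tested) and 4 higher at an FDR under 0.01. The share of higher genes was close to the 32.9% of all genes tested, and no gene was past the fold cutoff. The log2 fold changes of the 12 genes ran from -1.79 for Tgfb2 to 1.77 for Tgfbr3. Of 10 anchoring and intermediate filament genes, which include Des, 7 were lower (32.0% of all genes tested) and 2 higher (32.9%).

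**Figure D3:**
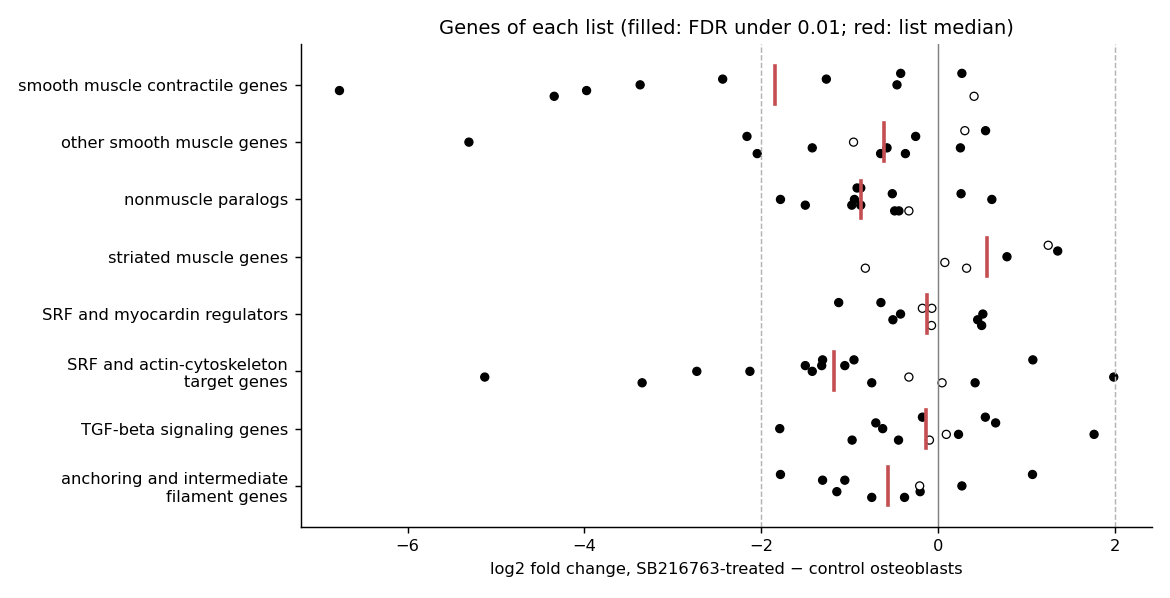
Log2 fold change of SB216763-treated against control osteoblasts for every tested gene of 8 lists, with filled points at an FDR under 0.01, a red line at each list's median and dashed lines at 2 and -2. The contractile genes have the lowest median, -1.85, and the regulators lie within 1.2 of 0, with Gata6 lowest at -1.12.

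Lower levels of contractile genes came together with changes in markers of other cell types. In bulk libraries, fewer cells of a type and less RNA per cell cannot be told apart. The 6 fibroblast markers summed to 5149 to 5912 CPM in controls and 854 to 923 CPM in treated osteoblasts, with Tcf21 at 0 in both. Of the 4 tested, 2 were lower at an FDR under 0.01 (32.0% of all genes tested) and 2 were higher (32.9%). The lower ones were Col3a1 (5198 to 532 CPM), which made most of the difference in this sum, and Dcn (264 to 211 CPM). Lum and Pdgfra were higher after treatment (53.2 to 87.9 CPM and 33.3 to 67.0 CPM). The 8 osteoblast markers summed to 20091 to 28688 CPM and 2893 to 3043 CPM, mostly Col1a1. At an FDR under 0.01, 6 of 8 were lower (32.0% of all genes tested) and 1 was higher (32.9%). The higher one was Dmp1 (0.185 to 66.4 CPM, log2 fold change 8.53). The 8 pericyte markers summed to 276 to 340 CPM in controls and 758 to 775 CPM in treated osteoblasts, nearly all from Pdgfrb, with Kcnj8 at 0 in both groups. Of the 4 tested, 3 were lower at an FDR under 0.01 (32.0% of all genes tested) and only Pdgfrb was higher (32.9%). The lower ones were Cspg4 (33.2 ± 9.26 to 3.14 ± 0.462 CPM), Mcam (4.70 to 1.20 CPM) and Notch3 (20.9 to 14.4 CPM). The part of these changes in the fall of the contractile genes was not tested.

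The distance of each osteoblast group from ECs was compared next. In control osteoblasts 8 of the 10 genes were higher than in ECs at an FDR under 0.01, against 37.9% of all genes tested, and 2 were lower, against 39.0%. Past the fold cutoff as well, 6 were higher, against 9.87%, and 2 were lower, against 13.5%. In treated osteoblasts 7 were higher at an FDR under 0.01, against 38.3%, and 2 were lower, against 40.3%, while past the fold cutoff 4 were higher, against 10.3%, and 1 was lower, against 15.0%. Both comparisons use the same EC libraries, and each shares its osteoblast libraries with the comparison of treatment, so these values are not independent. Cnn1 and Myh11, the 2 lower genes, reached the filter on low counts in all 3 libraries of ECs only. Myl9, Tpm2 and Des reached it in all 3 libraries of each osteoblast group but not of ECs, with 1 EC library for Myl9. These genes passed through the group where they were high, so they were bound to differ and the counts are a description.

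**Figure D4:**
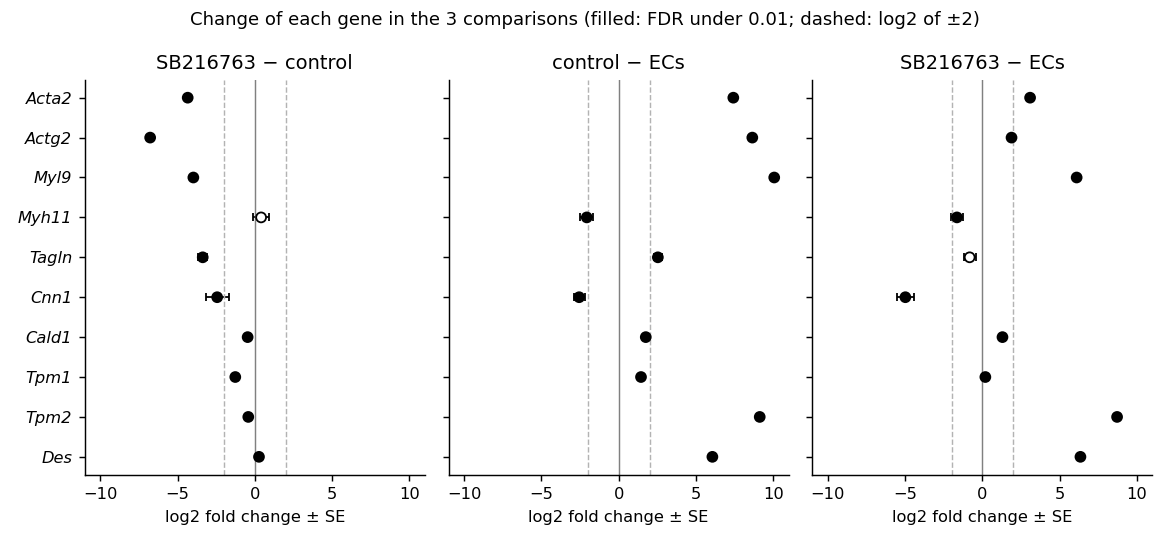
Log2 fold change of each contractile gene in the 3 comparisons, from edgeR, with filled points at an FDR under 0.01 and dashed lines at 2 and -2. Error bars are an approximate SE derived from the test's F statistic. They are shorter than counting error for genes with few EC counts, such as Myl9, Tpm2 and Des. Acta2 stands at 7.42 above ECs in controls and at 3.08 in treated osteoblasts, Tpm2 at 9.13 and 8.71, and Cnn1 lies below ECs in both.

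Acta2 was 172-fold above ECs in controls (log2 fold change 7.42, SE 0.08) and 8.47-fold in treated osteoblasts (3.08, SE 0.06). For Actg2 the log2 fold changes were 8.65 and 1.88, and for Myl9 they were 10.07 and 6.09, all at an FDR of 2.42e-09 or lower. Tpm2 and Des kept a wide gap in both groups, with log2 fold changes against ECs of 9.13 and 8.71 for Tpm2 and of 6.07 and 6.34 for Des. The EC levels of Des rested on 5, 6 and 3 counts. Cald1 was 1.76 above ECs on the log2 scale in controls and 1.29 in treated osteoblasts.

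Tpm1 was 1.45 above ECs on the log2 scale in controls and 0.19 in treated osteoblasts (FDR = 0.00224 for the latter, but 0.0108, 0.0141 and 0.0117 without SB216763 replicate 1, EC replicate 1 and EC replicate 2). Tagln was higher than in ECs in controls (log2 fold change 2.54, FDR = 7.62e-08), and in treated osteoblasts the difference of -0.83 did not pass (FDR = 0.0565). Cnn1 and Myh11 were the genes with their highest level in ECs. Cnn1 stood at -2.55 on the log2 scale in controls against ECs, and its counts per depth in ECs were 34.7 times those of treated osteoblasts, with a 95% counting interval of 13.3 to 129. Myh11 stood at -2.06 on the log2 scale in controls against ECs and at -1.65 in treated osteoblasts against ECs. The value for controls was -1.95 in limma-voom, -1.98 without control replicate 1 and -1.82 without EC replicate 3.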

How the data were processed

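Total RNA of 9 libraries was sequenced, and the authors deposited a table of raw counts per gene for all libraries, made with STAR (2.5.3a on GRCm38 in the submitters' processing notes). The annotation and the strand setting of the counting are not given in the sources used here. Identifiers were matched to symbols, exons and coordinates in GENCODE release M21 on GRCm38 for 50462 of 50686 genes. Counts were analyzed in R 4.3.3 with edgeR 4.0.16: filterByExpr by group (15531 genes kept), TMM scaling, and a quasi-likelihood fit to all 9 libraries with group as the only term and a prior count of 0.125. Calls were made at a Benjamini-Hochberg FDR under 0.01 alone and, as the study did, with an added fold cutoff of 2 on the log2 scale. The SE of a log2 fold change is approximate: its absolute value divided by the square root of the test's F statistic. This SE falls short of counting error where a large change rests on few counts in a group. Examples are Myl9, Tpm2 and Des against ECs, and Actg2, Tagln and Ldb3 in treated against control osteoblasts. RPKM is TMM-scaled CPM per kb of merged exons. The biological coefficient of variation was 0.0554.

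All 10 genes are named. Of other lists, genes are named if past both cutoffs with a mean of at least 1 CPM in 1 group, if nonmuscle paralogs, if among 5 fixed regulators, or as the lowest or highest of a range. Genes given because they rose, or listed as silent, were chosen after their values were seen. So were Pdgfrb, Cspg4, Mcam, Notch3, Lum, Pdgfra, Dcn, Cd68, Alpl, Myh9 by library and the marker genes at 0. The members and lists were chosen with earlier results of these data known. Some items of the lists are not reported here, and the lists are counted without them.

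Alternatives were DESeq2 1.42.0, limma-voom (limma 3.58.1), other scalings, filters, cutoffs and gene lengths, fits of only the 2 groups compared, a replicate block, and leaving out each library. In data simulated for treated against control osteoblasts, edgeR recovered 200 of 200 genes changed by a log2 of 3 among 15495, with 0 false calls. The changed genes were drawn from those well above the floor in controls, and all genes were given the same spread. The simulation therefore does not cover genes as low as Cnn1 and Myh11, or genes with a wider spread between libraries. No libraries were duplicates. Intervals for count ratios are exact, at 95%, and cover counting error only.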

Additional observations from a re-analysis of the deposited data

How the results depend on the processing

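Of the log2 fold changes of single contractile genes under the alternatives, 463 kept their direction and their side of the joint cutoff on FDR and fold, 6 came to pass it, 8 no longer passed it, and none changed direction. At an FDR of 0.01 alone, 15 of 417 values from other fits crossed it: 5 for Cnn1 and 5 for Des in treated against control osteoblasts, and 3 for Tpm1 and 2 for Myh11 in treated osteoblasts against ECs. Of the 10 genes, 5 were lower with SB216763 in the reported fit, and this count ran from 4 to 5 when single libraries were left out. It was 4 under scaling by library size and with the replicate block, Cnn1 being the gene lost each time, and 4 in a fit of the 2 osteoblast groups alone, where Cnn1 was not tested. In controls against ECs, 1 gene in place of 2 was lower under limma-voom and, with single libraries left out, 1 to 2 were lower, the low value coming without control replicate 1 or EC replicate 3. With a log2 cutoff of 1, 2 genes in place of 1 were lower in treated osteoblasts than in ECs, and all-gene calls rose to 1726 higher and 2015 lower for treated against control, 2716 and 3295 for control against ECs, and 2978 and 3608 for treated against ECs. These follow from the cutoff itself. Scaling by library size alone moved the median log2 of all genes from 0.01 to 0.22 for treated against control and from -0.01 to -0.13 for control against ECs. Under it Tpm2 was at -0.22, Cald1 at -0.26 and Des at 0.48.

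The labels do not say whether same-numbered libraries were paired. Deviations of same-numbered libraries of treated and control osteoblasts correlated at 0.0029, 0.123 and 0.081, across genes. No strong effect shared by replicate number was seen, which cannot decide whether they were paired. With the replicate block, 581 genes were higher and 901 lower for treated against control, against 592 and 907 without it, and of the contractile genes the call of Cnn1 alone changed.

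With the longest transcript in place of merged exons, control levels were 1432 RPKM for Acta2, 695 for Tpm1, 666 for Cald1, 165 for Actg2, 52.4 for Tpm2, 2.65 for Des, 1.19 for Tagln and 0.0157 for Myh11, in the same order, but with overlap of the libraries of Tpm1 and Cald1. Depth limits Cnn1 and Myh11 in the osteoblasts, with as few as 0 and 2 counts in a library, Des in ECs, with as few as 3, and Tagln in treated osteoblasts, with as few as 4. The stricter filter on low counts, DESeq2 and the other settings gave counts within 1.5 times those reported.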
